A study of Mus musculus with 4 samples.

Results

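Collagen chains were read for 42 genes through 82 probe sets, among 18193 genes and 34945 probe sets with a single annotated gene. The collagen family was chosen with earlier results of these data known. Within it, genes were taken when their platform symbol was Col, a number, the letter a and a number, whatever their values. They comprised 11 fibrillar genes (types I, II, III, V, XI, XXIV and XXVII), 6 basement membrane genes (type IV), 5 beaded genes (type VI), 9 FACIT genes (types IX, XII, XIV, XVI, XIX, XX and XXII) and 11 genes of other types. FACIT stands for fibril-associated collagens with interrupted triple helices. Col6a6 and Col28a1, which RefSeq also lists, were not analysed here.

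Collagen chains wind into triple helices, each made of copies of a single chain or of different chains in a fixed ratio. Types I, III and V form the banded fibrils of connective tissue, which stromal fibroblasts make, and type VI forms beaded filaments around those fibrils. Type IV forms the sheet-like network of basement membranes, to which basal mammary cells attach and to which they contribute. Types VII and XVII anchor basal epithelium to that membrane, and FACIT chains sit on the surface of fibrils.

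The RNA was taken, directly after sorting, from the basal population of mouse mammary glands, a fraction enriched for mammary stem cells that per the labels also holds myoepithelial cells and their progenitors. All the mice carried the MMTV-Wnt1 transgene, in which a viral promoter active in mammary epithelium drives the Wnt1 ligand, on a mixed B66SJL/HEV/J background. The CAS group (2 arrays) ate a control casein diet and the SPI group (2 arrays) a soy protein isolate diet, and the comparison asks how the diet altered the transcripts of these cells. No label gives the age of the mice, or says whether an array held 1 animal or a pool. What the p-values weigh is thus the spread from sample to sample, and part or all of it may be technical.

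Each value is a log2 expression value relative to the median of its probe set over the 4 arrays, so the data hold differences between arrays and no levels. The digits of the values still show a coarse class of the level before that centring: from 8 to 16, from 4 to 8, from 2 to 4, or below 2 in log2 units. A class had to fit all 4 arrays, so a probe set that spans a boundary takes the lower class. Of the 42 collagen genes, 37 reached level 4 (88.1%, against 74.9% of all genes), although 9 of 43 olfactory receptor probe sets reached it too, so the class does not establish expression. The keratins Krt5 and Krt14, which define basal cells, were in the class 8 to 16. Lum, a marker of fibroblasts, and Krt8, a marker of luminal cells, were in that class as well.

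On the SPI diet 9 collagen genes fell and 0 rose, by limma with Benjamini-Hochberg adjustment over all 18193 genes, of which 3.68% passed. These 9 were Col1a1, Col1a2, Col3a1, Col5a2 and Col5a3 of the fibrillar class, Col6a1, Col6a2 and Col6a3 of the beaded class, and Col15a1. Their differences (SPI minus CAS) lay between -1.70 and -1.05 on the log2 scale. Over all genes 2.90% fell and 0.786% rose. The other 33 collagen genes lay between -0.50 and 0.36, so no collagen gene had a difference between the -1.05 of Col5a2 and the -0.50 of Col13a1. That gap rests on the probe sets used: with every probe set of a gene averaged, Col5a2 was at -0.899, Col1a2 at -0.887 and Col5a3 at -0.594, and all 3 still passed. Among all 18193 genes ordered from the largest fall, Col1a1 stood at place 35 and Col5a2, the last of the 9, at place 156.

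**Figure D1:**
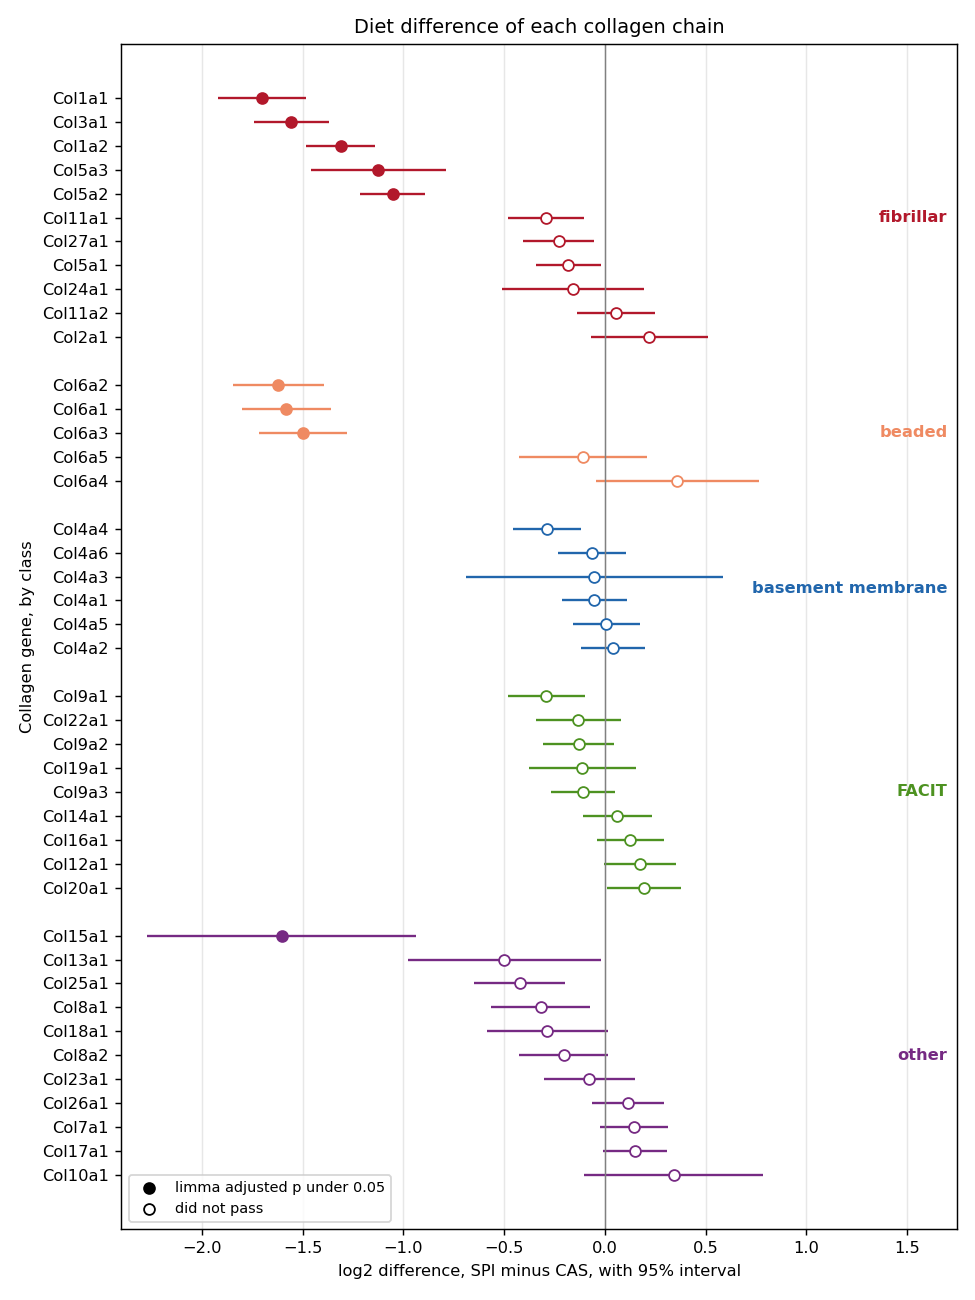
Diet difference of the 42 collagen genes on the log2 scale (x axis, SPI minus CAS), grouped by class on the y axis; points are the limma estimates from 2 arrays per diet and bars their 95% intervals. Filled points passed the test: 9 genes between -1.70 and -1.05, while the 33 open points lie between -0.50 and 0.36.

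By class, 5 of 11 fibrillar genes fell (median difference -0.29), 3 of 5 beaded (-1.50), 0 of 6 basement membrane (-0.052), 0 of 9 FACIT (-0.11) and 1 of 11 others (-0.21), beside a median of 0.022 over all genes; the basement membrane and FACIT medians turned positive with arrays centred on hybridization controls, the latter also without the second CAS array (0.0166) and over its genes at level 4 or above (0.0621). Where limma called 0 genes, an unadjusted p under 0.05 was reached by 1 of 6 basement membrane genes and 2 of 9 FACIT genes. Over all 18193 genes 3827 reached it, 1865 lower and 1962 higher. Both SPI arrays lay below both CAS arrays in 24 of the 42 genes and above them in 10, against 22.4% and 29.4% of all genes. With any single array left out, which leaves 1 array to stand for a diet, limma called 0 genes of the whole series and 0 collagens. In those fits the differences of the 9 collagens stayed between -1.91 (Col15a1) and -0.966 (Col5a3). With arrays centred on the hybridization controls, which raised the median of all genes by 0.17, the same 9 collagens fell, Col2a1 and Col20a1 rose, and 10 collagens that had not passed turned from a negative to a positive difference. That centring gave 516 falls and 2255 rises over all genes, in place of 527 and 143.

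Type I collagen, the main fibril of connective tissue, is built from the chains of Col1a1 and Col1a2. Col1a1 read 0.74 and 0.91 in CAS and -0.84 and -0.91 in SPI. Both SPI arrays were far below both CAS arrays, a 3.25-fold fall (95% interval 2.79 to 3.79, limma adjusted p = 0.00324; each diet has 2 arrays here and below). Col1a2 read 0.63 and 0.70 in CAS against -0.63 and -0.67 in SPI, a 2.48-fold fall (2.20 to 2.80, adjusted p = 0.00324). Within an array, Col1a1 minus Col1a2 was 0.11 and 0.21 in CAS and -0.21 and -0.24 in SPI, so the Col1a1 value moved 0.39 further. As each probe set is centred on its own median, the sign within a diet does not rank the chains. Col3a1, the chain of type III fibrils, read 0.74 and 0.79 in CAS and -0.74 and -0.85 in SPI, a 2.94-fold fall (2.59 to 3.34, adjusted p = 0.00312).

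Type V collagen starts and limits fibril growth, and its chains did not behave alike. Col5a2 read 0.52 and 0.55 in CAS and -0.52 on both SPI arrays, a 2.08-fold fall (1.86 to 2.32, limma adjusted p = 0.00414). Col5a3 read 0.44 and 0.62 in CAS and -0.44 and -0.76 in SPI, a 2.18-fold fall (1.73 to 2.75, adjusted p = 0.0208). Its SPI arrays stood 0.32 apart, yet the nearest CAS and SPI values were still 0.88 apart. With the replicate number as a block Col5a3 did not pass (limma adjusted p = 0.0542). Col5a1, the chain present in most type V molecules, was at -0.18 (95% interval -0.34 to -0.021, adjusted p = 0.197) and did not pass. Within an array, Col5a1 minus Col5a2 went from -0.44 and -0.47 in CAS to 0.40 and 0.44 in SPI, a shift of 0.87. Because of the centring only that shift compares the chains, and the signs do not say which was higher.

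**Figure D2:**
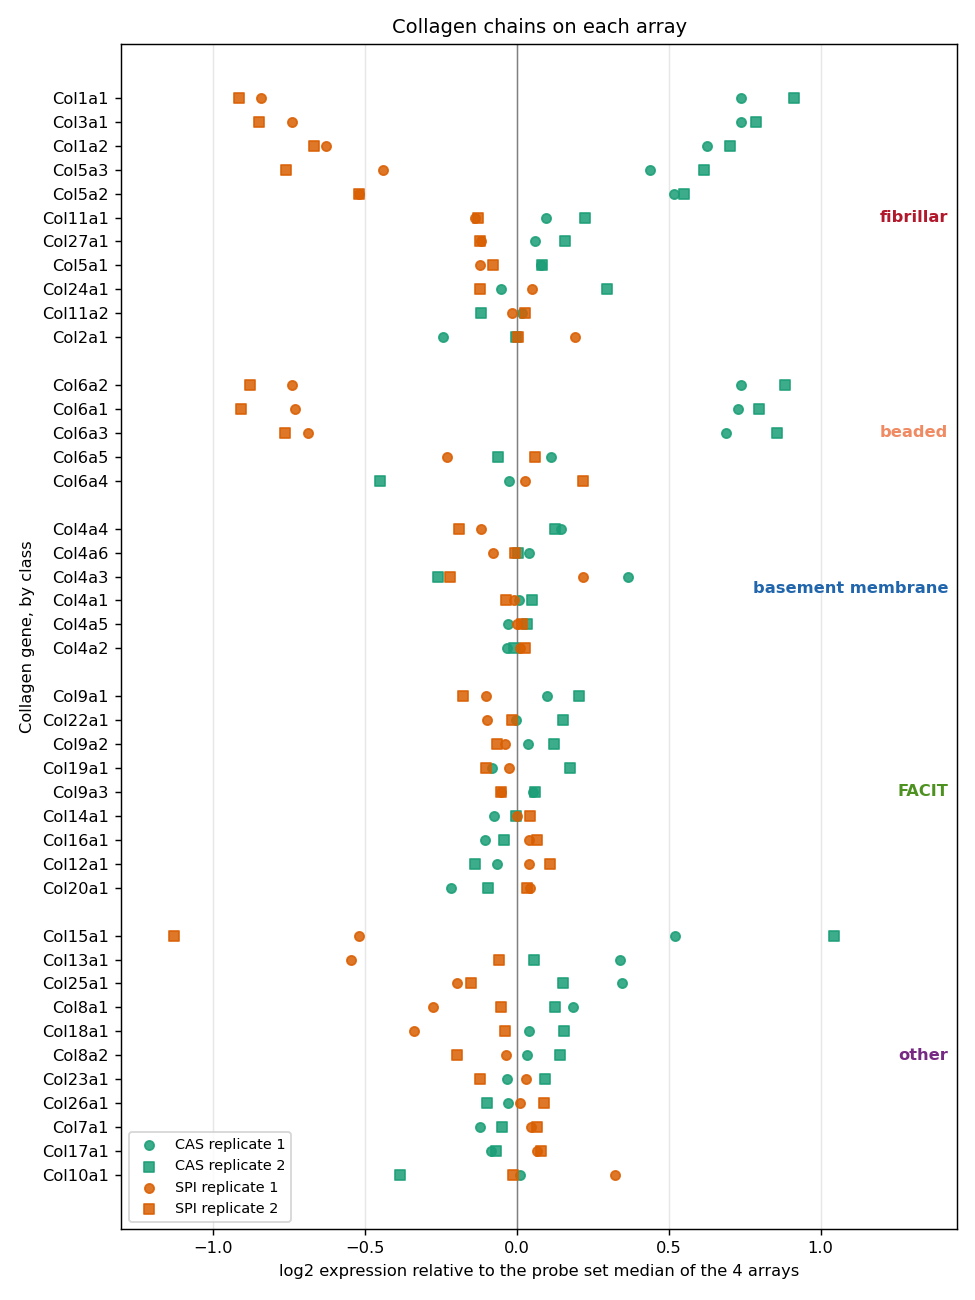
Value of each of the 42 collagen genes on each of the 4 arrays (x axis, log2 relative to the probe set median), by class on the y axis; circles and squares are replicates 1 and 2, green CAS and orange SPI. In the 9 genes that fell the diets stand at least 0.88 apart, and among these 9 Col15a1 shows the widest gaps between replicates of a diet, 0.52 in CAS and 0.61 in SPI.

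The other fibrillar genes did not pass. Col11a1, whose chain occurs in thin fibrils with type V chains and in cartilage, was at -0.29 (-0.48 to -0.10, limma adjusted p = 0.113), with CAS arrays at 0.096 and 0.22 and SPI arrays at -0.14 and -0.13. Col27a1 was at -0.23 (adjusted p = 0.155), also with both SPI arrays below both CAS arrays. Col2a1, the cartilage fibril chain, was at 0.22 (-0.072 to 0.51), and its upper CAS value of -0.0035 and lower SPI value of 0.0035 almost touched. Col11a2 (0.056) and Col24a1 (-0.16) had overlapping diets, and Col24a1 was the member in the level class under 2.

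Type VI collagen is assembled from the chains of Col6a1, Col6a2 and Col6a3, and these fell together. Col6a1 read 0.73 and 0.80 in CAS against -0.73 and -0.91 in SPI, a 2.99-fold fall (2.57 to 3.48, limma adjusted p = 0.00345). Col6a2 read 0.74 and 0.88 against -0.74 and -0.88, a 3.07-fold fall (2.63 to 3.60, adjusted p = 0.00345). Col6a3 read 0.69 and 0.86 against -0.69 and -0.76, a 2.82-fold fall (2.43 to 3.28, adjusted p = 0.0035). Their differences stayed close: Col6a1 minus Col6a2 moved by 0.040 between the diets and Col6a1 minus Col6a3 by -0.084. The alternative chains did not pass: Col6a4 was at 0.36 (-0.046 to 0.77, adjusted p = 0.278), with a single CAS array at -0.45 far from the other at -0.026, and Col6a5 was at -0.11 (-0.43 to 0.21) with overlapping diets and turned positive without the first SPI array (0.0369) and with centring on hybridization controls (0.0624).

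Col15a1 encodes type XV collagen, which links basement membranes of vessels and muscle to nearby fibrils. It read 0.52 and 1.04 in CAS and -0.52 and -1.13 in SPI, a 3.04-fold fall with a wide interval (1.92 to 4.83, limma adjusted p = 0.0457). The diets did not overlap, but replicates within a diet lay 0.52 and 0.61 apart, against at most 0.18 and 0.32 in the other 8 genes that fell. Leaving out a single array moved its difference between -1.91 and -1.3, and with the replicate number as a block it did not pass (adjusted p = 0.106). Its relative Col18a1, the source of the fragment endostatin, was at -0.29 (-0.59 to 0.017, adjusted p = 0.255), with 1 SPI array at -0.34 and the other at -0.039.

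All 6 type IV genes failed to pass. Col4a1 and Col4a2, whose chains form the network of nearly every basement membrane, were at -0.052 (-0.21 to 0.11) and 0.040 (-0.12 to 0.20), and both were in the level class 8 to 16. Their intervals hold a fall of at most 0.21 and 0.12 on the log2 scale, far from those of type I. Col4a5 and Col4a6, a pair found in basement membranes of skin and smooth muscle, were at 0.0068 (-0.16 to 0.17) and -0.064 (-0.23 to 0.11), in the same level class. The sign of Col4a1, Col4a3 and Col4a6 turned under centring by hybridization controls, while Col4a5 changed sign with arrays centred on their median. Col4a3 (0.26 and 0.167) and Col4a5 (-0.0241 and -0.00146) also turned without the first CAS array and without the second SPI array.

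Col4a3 and Col4a4, chains known from kidney and lung, were read at level 4 to 8. Col4a4 had both SPI arrays (-0.12 and -0.19) below both CAS arrays (0.15 and 0.12), a difference of -0.29 (-0.46 to -0.12, limma adjusted p = 0.0933). Col4a3 had replicates far apart in both diets, at 0.37 and -0.26 in CAS and 0.22 and -0.22 in SPI, and its interval of -0.69 to 0.58 leaves its difference undetermined.

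Type VII and type XVII collagen are made by basal epithelium itself. Col7a1, the anchoring fibril chain, read -0.12 and -0.048 in CAS and 0.048 and 0.067 in SPI. Col17a1, a transmembrane chain of hemidesmosomes, read -0.085 and -0.067 against 0.067 and 0.081. Both had their SPI arrays above their CAS arrays, at differences of 0.14 (-0.027 to 0.31) and 0.15 (-0.0090 to 0.31), and neither passed (limma adjusted p = 0.297 and 0.255). Both intervals leave out the size of every fall among the 9 genes above.

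Further members of the last class also missed the threshold. Col13a1, a transmembrane chain, was at -0.50 (-0.98 to -0.020, limma adjusted p = 0.224), where 1 array of each diet carried most of the difference: 0.34 and 0.058 in CAS against -0.54 and -0.058 in SPI. Col25a1, another transmembrane chain, was at -0.42 (adjusted p = 0.0790) as the mean of disagreeing probe sets. Col10a1, a chain of cartilage growth plates, was at 0.34 (-0.11 to 0.79) with overlapping diets and in the level class 2 to 4. Col8a1 and Col8a2, short chains of endothelial and other matrices, were at -0.32 and -0.21, Col23a1 at -0.077 and Col26a1 at 0.11.

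No FACIT gene passed, although some of these chains decorate the fibrils whose own chains fell. Col12a1 and Col14a1, which bind type I fibrils in soft tissue, were at 0.18 (-0.0021 to 0.35) and 0.062 (-0.11 to 0.23), with SPI arrays above CAS arrays in both. Col16a1 was at 0.13 (-0.041 to 0.29). Col20a1, at 0.19 (0.0089 to 0.38, limma adjusted p = 0.222), had the largest positive difference of the class, and Col9a1, at -0.29 (-0.48 to -0.10, adjusted p = 0.116), the largest negative one. The chains of type IX, which coats cartilage fibrils, were all negative, with Col9a2 at -0.13 and Col9a3 at -0.11. The last 2 turned positive with arrays centred on the hybridization controls, as did Col19a1 (-0.11) and Col22a1 (-0.13).

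Several probe sets read 27 of the 42 genes, and in 11 of these all of a gene's probe sets agreed within 0.2. The 9 genes that fell were read by 16 probe sets. Tested alone, 13 collagen probe sets fell and 0 rose, against 1.83% and 0.398% of all probe sets. At an unadjusted p under 0.05, limma gave 27 falling and 1 rising of the 82, against 6754 of all 34945 probe sets in either direction. The pair for Col1a1 gave -1.69 and -1.71, and that for Col3a1 -1.56 and -1.87. Another Col1a2 probe set and another Col5a3 probe set, both in the level class under 2, stood at 0.0076 and -0.063 beside -1.31 and -1.13 of the ones used. Tested alone, the single Col15a1 probe set missed the threshold (limma adjusted p = 0.0567).

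**Figure D3:**
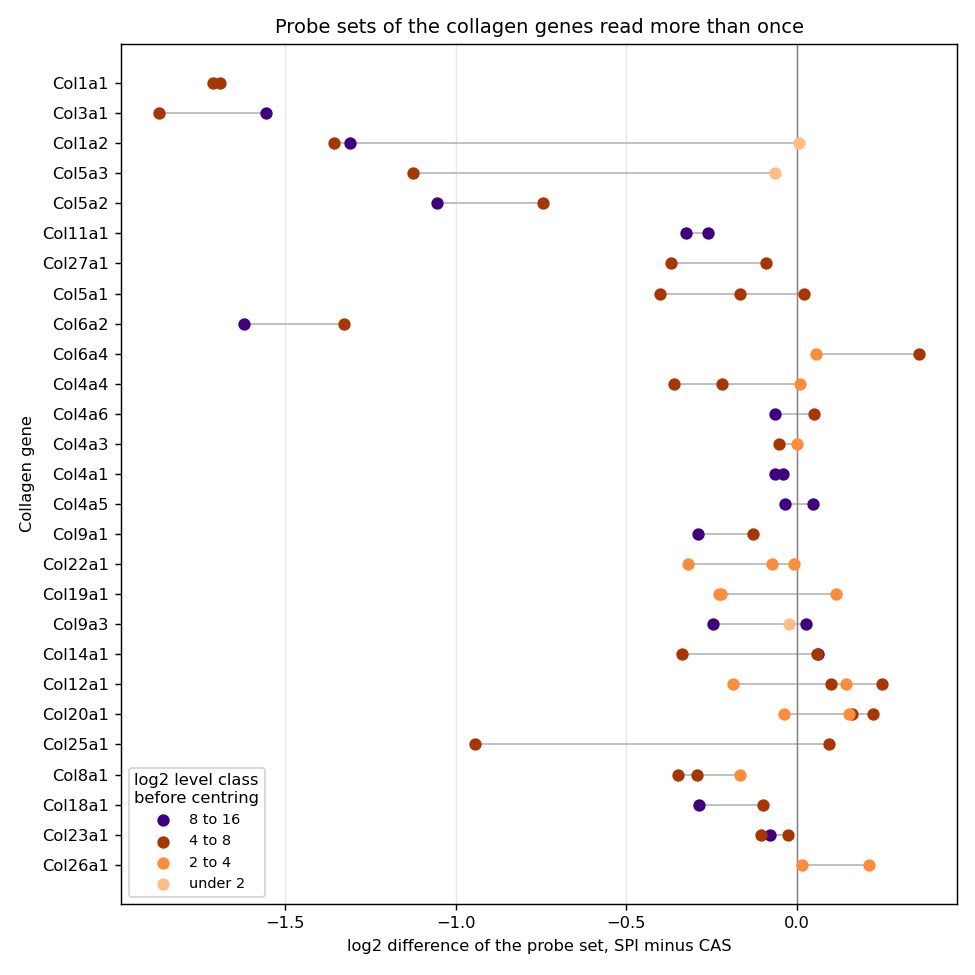
Difference of every probe set (x axis, log2, SPI minus CAS) for the 27 collagen genes read by more than 1 probe set (y axis), coloured by the level class before centring; grey lines join the lowest and highest value of a gene. Probe sets of Col1a1 coincide, while Col1a2, Col5a3 and Col25a1 each hold values more than 1.0 apart.

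The spread within the same gene gives a scale for the differences between chains. Col25a1 was read at -0.94 and 0.095 by probe sets of 1 level class, and Col5a1 at -0.40, -0.17 and 0.021. Another Col14a1 probe set stood at -0.33, apart from the 0.062 used. The gap of 0.39 between Col1a1 and Col1a2 is near the 0.31 between the Col3a1 probe sets. It is wider than the 0.023 between the Col1a1 probe sets. A further Col1a2 probe set, at level 4 to 8, fell too (-1.36 beside the -1.31 used). The gap of 0.87 between Col5a1 and Col5a2 is smaller than the 1.04 between the Col25a1 probe sets. It is larger than the spread within Col5a1 (0.42) or within Col5a2 (0.31). Another Col5a2 probe set (-0.745) lay closer to the lowest of Col5a1 (-0.40).

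Several collagen genes are neighbours, with no other protein-coding gene between them in RefSeq GRCm38.p6. Col3a1 and Col5a2 are such a pair and both fell (-1.56 and -1.05), as did Col6a2 and Col6a1 (-1.62 and -1.58). Neither member passed in the pair Col9a1 and Col19a1 (-0.29 and -0.11), nor in Col6a5 and Col6a4, which differed in sign (-0.11 and 0.36). In the type IV pairs, which share a start region head to head, neither member passed. The annotated starts of Col4a1 and Col4a2 lie 21 bases apart, and those of Col4a5 and Col4a6 lie 1343 bases apart.

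The promoter table matched 33 of the 42 genes, 7 of them among the 9 that fell. Shown are the 120 bases before the annotated start for 3 genes that fell together and for the epithelial anchoring genes Col7a1 and Col17a1, which did not, from RefSeq GRCm38.p6, 5′ to 3′, with matches to the CCAAT box, TATAAA or GGGCGG in capitals on either strand.
Col1a2, chr6:4505498-4505617, plus strand: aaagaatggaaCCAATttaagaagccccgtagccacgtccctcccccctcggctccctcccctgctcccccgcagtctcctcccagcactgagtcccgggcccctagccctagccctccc
Col3a1, chr1:45311418-45311537, plus strand: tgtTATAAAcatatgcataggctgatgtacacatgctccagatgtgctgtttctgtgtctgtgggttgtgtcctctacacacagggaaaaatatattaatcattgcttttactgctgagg
Col6a1, chr10:76726045-76726164, minus strand: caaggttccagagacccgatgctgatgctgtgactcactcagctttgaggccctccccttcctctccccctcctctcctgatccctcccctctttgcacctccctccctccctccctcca
Col7a1, chr9:108953466-108953585, plus strand: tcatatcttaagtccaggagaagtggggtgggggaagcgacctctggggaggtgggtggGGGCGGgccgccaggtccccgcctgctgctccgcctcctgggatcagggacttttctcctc
Col17a1, chr19:47692043-47692162, minus strand: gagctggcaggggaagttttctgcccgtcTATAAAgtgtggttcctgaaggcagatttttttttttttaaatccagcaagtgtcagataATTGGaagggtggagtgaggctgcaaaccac

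In the stretches shown, Col1a2 had a CCAAT box, Col3a1 a TATAAA and Col6a1 no match, whereas Col5a3 and Col6a2, which fell too and are not shown, both held CCGCCC within 120 bases. Within 250 bases before the start, CCAAT (or ATTGG) was found in 2 of 8 windows of genes that fell and in 11 of 28 of the others, against 33.9% of 32841 windows of all genes. TATAAA (or TTTATA) was in 1 of 8 and 4 of 28, against 12.4%. GGGCGG (or CCGCCC) was in 4 of 8 and 17 of 28, against 32.7%. These matches describe letters and not binding, and genes with a pair of annotated starts counted once for each.

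Enzymes that modify and fold collagen did not follow the chains as a group. Of 15 prolyl and lysyl modification genes 1 fell and 0 rose (median 0.031), against 2.90% and 0.786% of all genes. The gene that fell was P4ha2, a catalytic subunit of prolyl hydroxylase. P4ha2 read 0.56 and 0.30 in CAS and -0.30 and -0.38 in SPI, a 1.71-fold fall (limma adjusted p = 0.0300). Its relative P4ha1 was at 0.26 (adjusted p = 0.122), with Colgalt2 at 0.35 and P3h1 at 0.28, none of which passed. Of 13 folding and secretion genes limma called 0 (median 0.061), with Creb3l2 at 0.29, Mia2 at 0.29, Sec23a at 0.21 and Sec24d at 0.15. An unadjusted p under 0.05 was reached by 2 of the 13, beside 3827 of all 18193 genes. Serpinh1, the collagen chaperone, and Sparc, a collagen-binding protein, were at 0.085 (-0.12 to 0.29) and -0.026 (-0.19 to 0.14), a pair chosen after their values were seen.

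Genes acting outside the cell or at its surface were counted in the same way, beside 2.90% of all genes that fell and 0.786% that rose. Of 11 procollagen processing and cross-linking genes 3 fell and 0 rose (median -0.20): Pcolce, an enhancer of procollagen trimming (2.30-fold, limma adjusted p = 0.00879), and the cross-linking enzymes Loxl4 (1.81-fold) and Lox (1.60-fold), while Adamts3 (-0.35) did not pass. Of 12 receptors 2 fell (median 0.027), Mrc2, which takes up collagen fragments (2.15-fold, adjusted p = 0.00732), and Ddr2, a receptor for fibrillar collagen (1.39-fold, adjusted p = 0.0417, but 0.0877 with the replicate block and 0.07 with centring on hybridization controls). Adgrg6 (0.26) and Itga2 (0.25) did not pass. Of 12 breakdown genes 3 fell (median -0.26), the protease Ctsk (3.35-fold, adjusted p = 0.0029), Fap (2.76-fold) and the collagenase Mmp13 (1.62-fold), and Timp2 (-0.29) did not. In this list 2 genes, Fap and Mmp2, are also fibroblast markers. Of 15 fibril partners 7 fell (median -0.52), Lum (5.01-fold), Fmod, Ogn and Dpt first, but 6 of the 15 are also in the fibroblast marker list.

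Of 26 regulators of collagen transcription limma called 0 (median -0.0011), beside 3.68% of all genes in either direction. An unadjusted p under 0.05 was reached by 7, 2 lower and 5 higher, beside 3827 of all 18193 genes, 1865 lower and 1962 higher. Twist1 was at 0.46 (limma adjusted p = 0.0559), Twist2 at -0.60, Ets1 at 0.36 and Ccn2 at 0.30. With arrays centred on hybridization controls Twist1, Ets1 and Ccn2 passed, as did P4ha1, P3h1, Colgalt2, Creb3l2, Mia2, Adgrg6 and Itga2, all upward. Twist1, Ets1 and Ccn2 also passed upward, and Twist2 and Timp2 downward, both among genes at level 4 or above and with a variance trend over the level class. Twist1 and Ets1 passed with every probe set averaged, and Creb3l2 with the trend.

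**Figure D4:**
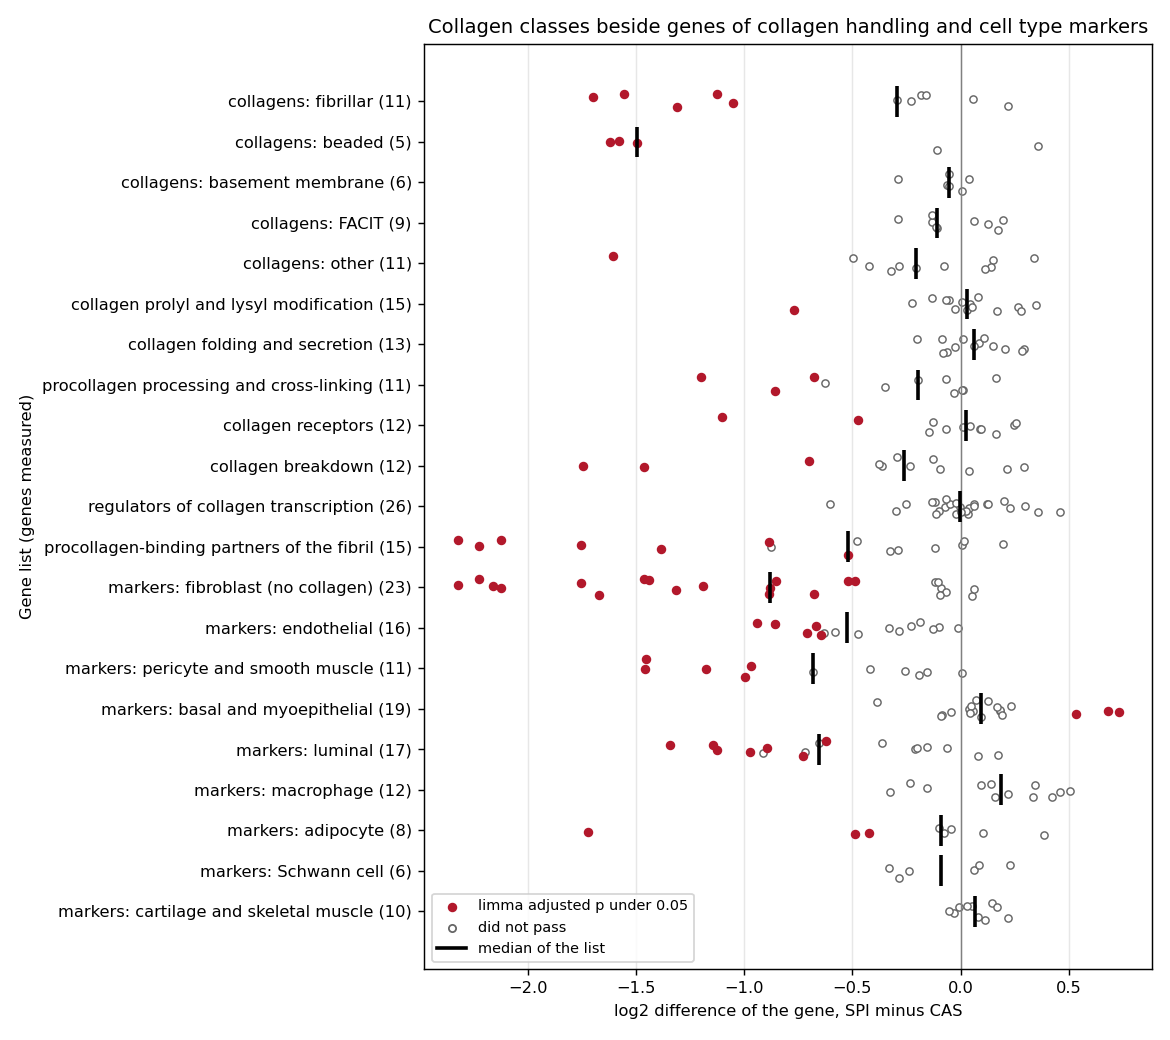
Difference of each gene (x axis, log2, SPI minus CAS) in the 5 collagen classes, 7 lists of collagen handling and 9 lists of cell type markers (y axis, with the number of genes measured); red points passed the limma test and black bars are medians. Medians lie at or below -0.52 in the beaded class, the fibril partners and the fibroblast, endothelial, pericyte and luminal markers, lowest in the beaded class at -1.50.

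Fibroblast markers other than collagens moved with the 9 genes. Of 23 measured, 16 fell and 0 rose, against 2.90% and 0.786% of all genes, with a list median of -0.88. The list median was 0.41 and 0.49 in CAS and -0.50 and -0.38 in SPI. Pdgfra was 1.81-fold lower, Dpt 3.37-fold and Lum 5.01-fold. The markers that did not pass include Dcn at -0.12 and Mmp2 at -0.096, both chosen after their values were seen. In bulk RNA, fewer cells of a type and less RNA per cell cannot be told apart, and the part of these cells in the fall of the collagens was not tested.

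Marker transcripts of other cell types were counted too, beside 2.90% of all genes that fell and 0.786% that rose. Of 16 endothelial markers 5 fell (median -0.53, with Pecam1 at -0.47, Cdh5 at -0.94 (not passing with the mean of all its probe sets, -0.42) and Kdr at -0.28), and 0 rose. Of 11 pericyte and smooth muscle markers 5 fell (median -0.68), Rgs5, Pdgfrb and Notch3 among them at -0.997, -1.46 and -0.97, and of 17 luminal markers 7 fell (median -0.66), with Krt8 at -0.36, Krt18 at -0.73 and Krt19 at -0.89. Of 19 basal and myoepithelial markers 3 rose and 0 fell (median 0.094), with Krt5 at -0.042 (0.129 with centring on hybridization controls and 0.0695 without the second CAS array), Krt14 at 0.23 and Krt15 at 0.73. Limma called 0 of 12 macrophage markers (median 0.19; 6 at an unadjusted p under 0.05; Adgre1 at 0.34, Cd68 at 0.51 and Csf1r at 0.14), 0 of 6 Schwann cell markers (median -0.089; 3; Mbp at -0.24, S100b at -0.33 and Sox10 at 0.062) and 0 of 10 cartilage and skeletal muscle markers (median 0.066; 0; Acan at 0.15, Matn1 at 0.22 and Matn3 at 0.11). That unadjusted threshold was reached by 3827 of all 18193 genes. Of the 10 cartilage and skeletal muscle markers only 3 reached level 4, with Acan and Matn3 in the class 2 to 4 and Matn1 below 2. Of the 8 adipocyte markers 4 reached level 4, with Adipoq and Lep in the class 2 to 4. With centring on hybridization controls Adgre1, Cd68, Matn1 and Adipoq passed upward, and Adipoq also with every probe set averaged. Single arrays set the sign of Matn3 (negative without the first CAS or the first SPI array), Sox10 (negative without the first CAS array) and Lep (positive without the second SPI array, and with centring on hybridization controls). Krt8 passed downward with every probe set averaged, at level 4 or above and with the variance trend. Of 8 adipocyte markers 3 fell (median -0.090), with Adipoq at 0.38, Lep at -0.044 and Fabp4 at -0.43 (not passing with the replicate block, with centring by hybridization controls or with every probe set averaged).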

How the data were processed

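RNA from 4 sorted samples was hybridized to Affymetrix arrays. The deposited log2 values were made by the authors with GCOS and RMA, per the submitters' processing notes, which name no version. The median of each probe set over the arrays was 0 to within 5e-07, so each probe set of the deposited log2 table was centred as well, which no label mentions. Of 45101 probe sets, 64 were controls, 34945 had 1 annotated gene, 932 several and 9160 none listed; symbols were updated by gene ID to GRCm38.p6 (34741 matched).

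Probe sets in the highest level class of a gene were averaged. Genes were fitted with limma 3.58.1 in R 4.3.3 (lmFit, eBayes, no trend, no block; 2 residual and 3.04 prior degrees of freedom), adjusted by Benjamini-Hochberg over all genes at 0.05. The number of arrays limits precision. Data were simulated for this comparison with 18193 genes, with normal noise whose spread was drawn from the prior that limma fitted to these arrays. There 29.4% of changes of 0.585, 88.4% of 1 and 99.7% of 2 (log2) were recovered, and 5.29% of calls were false. Such data meet the assumptions of the test by construction, so these shares do not give the error rate of the real arrays. The members, gene lists, tests and alternatives were chosen with earlier results of these data known. Named were all collagen genes that passed, the 3 largest differences per collagen class among the rest, fixed members (Col1a1, Col1a2, Col3a1, types IV, VI, VII, XV, XVII and XVIII), the 4 smallest p per pathway list and the first 3 measured markers per cell type. Other genes of the lists that passed are mostly counted without being named. Alternatives are given in the closing section.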

Additional observations from a re-analysis of the deposited data

How the results depend on the processing

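The 9 falling collagens were the same genes with arrays centred on their median or on hybridization controls, with every probe set of a gene averaged and with a variance trend over the level class. Over all genes, 670 passed; 1094 passed among genes at level 4 or above, where Col25a1 also fell, 1149 with the trend, 2771 with arrays centred on hybridization controls, 1479 at a threshold of 0.1 and 126 at 0.01, where 7 collagens fell. With the replicate number as a block, 329 genes and 7 collagens passed, without Col15a1 (adjusted p = 0.106) and Col5a3 (0.0542). The labels give no sign that equal numbers mark paired samples, and differences between replicates correlated at -0.0837 across genes between the diets. An ordinary t statistic called 0 genes and 0 collagens (2910 and 15 at an unadjusted p under 0.05). Without 1 array, 0 to 0 genes and collagens passed by limma (2485 to 3102 genes at an unadjusted p under 0.05).

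Class medians moved by more than the replicate spread as follows. With arrays centred on hybridization controls they were -0.121 (fibrillar), 0.119 (basement membrane), -1.33 (beaded), 0.0627 (FACIT) and -0.0339 (other), and the basement membrane median was -0.0672 with arrays centred on their median. At level 4 or above they were -0.673 (fibrillar), 0.0621 (FACIT) and -0.285 (other), and with every probe set averaged -0.0166 (basement membrane). Over single probe sets they were -0.0377 (basement membrane), -1.33 (beaded), -0.0151 (FACIT) and -0.101 (other). Without 1 array they ranged from -0.0557 to -0.0198 (basement membrane), from -1.58 to -1.41 (beaded), from -0.113 to 0.0166 (FACIT) and from -0.258 to -0.124 (other). A Col1a2 probe set at 0.00762 and a Cdh5 probe set at 0.101 had the opposite sign to their gene.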
